A study of Homo sapiens with 3 samples.

Results

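The matrix metalloproteinase (MMP), ADAM, ADAMTS and TIMP genes were examined in human melanoma cells as the cells moved between monolayer and 3D growth. The members were all genes whose name on the array is MMP, ADAM, ADAMTS or TIMP followed by a number and at most 1 letter, control spots left out. The rule gave 67 of the 30982 gene names on the array, measured by 100 of 41000 probes and 127 of 43376 spots per array. They were 23 MMP genes, 21 ADAM genes, 19 ADAMTS genes and 4 TIMP genes. The rule used names alone and no measured value.

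The cells were 1205Lu, an established human melanoma line grown from a lung metastasis that the line WM793 formed as a xenograft in a mouse. Original monolayer (OM) cells had 14 days in RPMI-1640 with fetal calf serum. Melanoma body (MB) cells had 14 days as attached 3D bodies in human embryonic stem cell (hESC) medium, which is DMEM/F-12 with KnockOut serum replacement. New monolayer (NM) cells were outgrown from such bodies, after 14 days of hESC medium, during 10 further days in the RPMI-1640 medium, and the remaining bodies were taken away before RNA was prepared. All populations are the same line with no added gene or knockdown, and MB differs from both monolayers in medium as well as in growth form, which cannot be told apart. Each population is 1 culture on 1 array of the same slide, so no test across samples was possible and every fold below is a difference between arrays, with an unknown spread between cultures. In bulk RNA, a change in the number of cells that express a gene and a change in RNA per cell cannot be told apart.

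MMPs are zinc proteases that cut proteins of the extracellular matrix, most of them secreted as inactive precursors and some held at the cell surface as membrane-type enzymes. ADAMs are membrane proteins, many of which cut the ectodomains of growth factors and receptors off the cell surface, while others lack the catalytic site and act in adhesion. ADAMTS proteins are secreted relatives that cut proteoglycans, procollagens and other matrix proteins, and TIMPs are tissue inhibitors of MMPs and of some ADAM and ADAMTS enzymes. In melanoma, MMPs are studied for their part in invasion through the basement membrane and dermis.

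The results turn on a few genes whose sequences are shown first. MMP1 and MMP9, the genes that fell most in MB, were each read by a probe printed in 10 spots, and ADAM12 by one probe for its long transcript and another for its short transcript. The first 30 of the 60 bases of each probe are given as deposited, in lower case, with hg17 positions of the whole probe: MMP1 at chr11:102165907-102165966 (minus strand), MMP9 at chr20:44078528-44078587 (plus strand), the long ADAM12 transcript at chr10:127694184-127694243 and the short one at chr10:127720201-127720260 (both minus strand). The transcript parts (exon or UTR) that these positions fall in were not analysed here.
MMP1: acatgtgcagtcactggtgtcaccctggat
MMP9: tggaggtgggctgggccctctcttctcacc
ADAM12 long transcript (NM_003474): aatcttggtttgccttccagaaaacaaaac
ADAM12 short transcript (NM_021641): tggctgcaacttaatgctctgatatggctt

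For 4 of the 7 members that rose in MB over OM, a promoter from the RefSeq promoter table (GRCh38.p14) is shown. Each is the 250 bases before the start site, given because these genes moved the same way. Not every promoter of the table was open to display, so the 4 shown do not tell how many of the 7 it holds. Capitals mark the GC box, GGGCGG on either strand. The windows were ADAM12 at chr10:126388478-126388727 (minus strand), ADAM19 at chr5:157575776-157576025 (minus strand), ADAM8 at chr10:133276869-133277118 (minus strand) and MMP15 at chr16:58025504-58025753 (plus strand).
ADAM12: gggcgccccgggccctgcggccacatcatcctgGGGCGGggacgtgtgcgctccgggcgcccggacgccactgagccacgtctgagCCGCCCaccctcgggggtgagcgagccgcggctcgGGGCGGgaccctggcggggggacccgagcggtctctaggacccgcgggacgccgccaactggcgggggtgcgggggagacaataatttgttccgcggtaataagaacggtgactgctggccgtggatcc
ADAM19: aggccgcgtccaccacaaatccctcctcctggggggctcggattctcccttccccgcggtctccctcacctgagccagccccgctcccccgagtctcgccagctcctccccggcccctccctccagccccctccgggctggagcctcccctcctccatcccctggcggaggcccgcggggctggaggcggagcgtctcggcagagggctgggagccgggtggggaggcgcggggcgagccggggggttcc
ADAM8: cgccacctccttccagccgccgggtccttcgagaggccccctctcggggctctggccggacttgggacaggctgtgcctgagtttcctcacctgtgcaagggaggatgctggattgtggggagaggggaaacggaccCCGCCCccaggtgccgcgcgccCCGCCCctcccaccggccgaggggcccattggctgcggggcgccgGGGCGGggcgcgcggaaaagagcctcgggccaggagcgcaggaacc
MMP15: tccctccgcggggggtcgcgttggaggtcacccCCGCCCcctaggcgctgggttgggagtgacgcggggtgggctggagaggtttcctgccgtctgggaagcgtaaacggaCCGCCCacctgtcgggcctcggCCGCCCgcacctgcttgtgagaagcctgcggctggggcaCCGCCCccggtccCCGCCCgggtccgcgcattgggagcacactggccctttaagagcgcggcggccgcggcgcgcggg

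These 4 windows held 3, 0, 3 and 5 GC boxes for ADAM12, ADAM19, ADAM8 and MMP15, and their GC contents of 73.6%, 76.4%, 73.6% and 74.8% lay above the median of 58.0% over all promoters. The GC box was in 42.6% of the 35116 promoters of the table and in 26 of the 40 promoters of 39 member genes. The AP-1 letters TGANTCA were searched on both strands, with no overlap with the GC box. They were in 6.57% of all promoters and in 4 of the same 40 member promoters, those of ADAMTS12, MMP10, MMP20 and MMP7. Members outside these 39 genes were not searched, MMP1 and MMP9 among them. None of the 4 windows shown held the AP-1 letters. These are matches of letters and say nothing about binding.

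Signals are background-subtracted intensities in arbitrary units (a.u.), given unscaled for each array. For ratios, the signals of an array were taken relative to its average of GAPDH, ACTB and HSP90AA1, which amounted to dividing MB by 0.978 and NM by 0.877 with OM left as it was. A gene was counted as changed at 2-fold or more, with the brighter array well above background by the scanner software's own mark and over 100 a.u., and 5-fold was counted as well. If the dimmer array failed that mark, the fold is a lower bound, taken against the higher of its own signal and the lowest signal well above background, which was 20.9 a.u. for OM, 19.4 for MB and 29.1 for NM. Replicate spots of the same probes gave the technical spread. For MB over OM, the SD of a single-spot log2 ratio was 0.25 below 100 a.u., 0.10 between 100 and 1000 a.u. and 0.068 above 1000 a.u. Any 2-fold call exceeds these values by its threshold alone, and they hold no spread of labelling, hybridisation or culture. No member spot was saturated or marked as an outlier.

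Marker genes of melanoma and of other cell types were read, which cannot establish the identity of a line. Of 9 melanoma and melanocyte markers, 7 were well above background on some array. Among them SOX10 and S100B were bright. MLANA (31.3, 39.5 and 26.5 a.u. on OM, MB and NM) and DCT (66.7, 62.8 and 64.1 a.u.) were dim. The pigment enzymes TYR and TYRP1 were not above background on any array. The leukocyte marker PTPRC, the endothelial marker CDH5, the fibroblast marker LUM and the keratinocyte marker KRT5 were not above background on any array either. Other genes of these lists were detected. CD14, CD3E, VWF, KRT14, KRT10, PDGFRA, PDGFRB and THY1 were above background on all 3 arrays, and PECAM1 and DCN on MB alone. The summed signal of the melanoma list was 34978 a.u. (OM), 60120.4 (MB) and 20778 (NM), most of it S100B at 25155, 43760 and 13307 a.u. That of 5 fibroblast genes was 7743, 13023 and 6881 a.u., most of it PDGFRA, PDGFRB and THY1. The endothelial list of 3 genes summed to 202 a.u. (OM), 486 (MB) and 115 (NM), the keratinocyte list of 3 to 39321, 39760.0 and 32773 a.u., and the leukocyte list of 3 to 184, 158 and 152 a.u. The part of these shifts in the results below was not tested.

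Of the 67 members, 44 (65.7%) were well above background on at least 1 array, against 72.3% of all gene names on the array. On all 3 arrays 37 members (55.2%) were so, against 62.1% of all gene names. By array, OM had 41 members above background, MB had 39 and NM had 38, and 34 passed 100 a.u. somewhere. All 4 TIMP genes were measured on every array, as were 12 of 23 MMP genes, 12 of 21 ADAM genes and 9 of 19 ADAMTS genes. Among ADAMs, 9 of the 12 with a catalytic site were measured on all 3 arrays, and 3 of the 9 without one.

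The 23 members not above background anywhere were ADAM2, ADAM7, ADAM18, ADAM20, ADAM28, ADAM29 and ADAM30, several of them known from testis and sperm, then ADAMTS4, ADAMTS8, ADAMTS10, ADAMTS15, ADAMTS17, ADAMTS18, ADAMTS19 and ADAMTS20, and the MMPs MMP3, MMP7, MMP10, MMP12, MMP20, MMP24, MMP26 and MMP27. Another 7 were above background on a single array and none of these passed 100 a.u. there. On OM alone these were ADAM32 (32.4 a.u.), ADAMTS6 (64.6 a.u.), MMP8 (22.9 a.u.) and MMP21 (25.8 a.u.). On MB alone they were ADAM6 (27.7 a.u.) and ADAMTS5 (28.1 a.u.), and on NM alone MMP13 (49.6 a.u.). The ADAMTS6 signal on OM was at least 3.26-fold above MB and that of MMP13 on NM at least 2.85-fold above MB, both too dim to be counted.

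In MB over OM, 43 members were measured, 7 rose and 4 fell by 2-fold or more, against 5.42% of all measured genes higher and 3.38% lower. Scaling to spike-in probes gave 2 higher and 5 lower, the 75th percentile 3 and 4, and quantile normalization 4 and 4. At 5-fold, 0 members rose (0.824% of all genes) and 2 fell (0.554%). The members that rose were MMP15, MMP16, ADAM8, ADAM12, ADAM19, ADAMTS1 and ADAMTS9, and those that fell were MMP1, MMP9, MMP19 and ADAM23. In MB over NM, 40 members were measured, 4 were higher in MB (11.1% of all genes) and 7 lower (8.39%), and without scaling 6 were higher and 5 lower. At 5-fold, 2 were higher (1.83%) and 2 lower (1.35%). In NM over OM, 42 members were measured, 4 were higher in NM (3.55% of all genes) and 3 lower (4.86%), and at 5-fold 0 were higher (0.621%) and 0 lower (0.449%). The comparisons share arrays and are not independent of each other.

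The signed median of the group, in which rises and falls cancel, moved little. The median log2 ratio was 0.10 for MB over OM (43 members with a fold), -0.20 for MB over NM (38 members) and 0.045 for NM over OM (39 members), beside 0.09, 0.04 and 0.06 over all genes. With signs dropped, the median was 0.53 for MB over OM, 0.62 for MB over NM and 0.31 for NM over OM. Over all genes it was 0.36, 0.53 and 0.34. The range was wide in both directions, from -3.50 (MMP1) to 1.85 (MMP16) in MB over OM and from -3.61 (MMP9) to 3.67 (MMP16) in MB over NM.

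**Figure D1:**
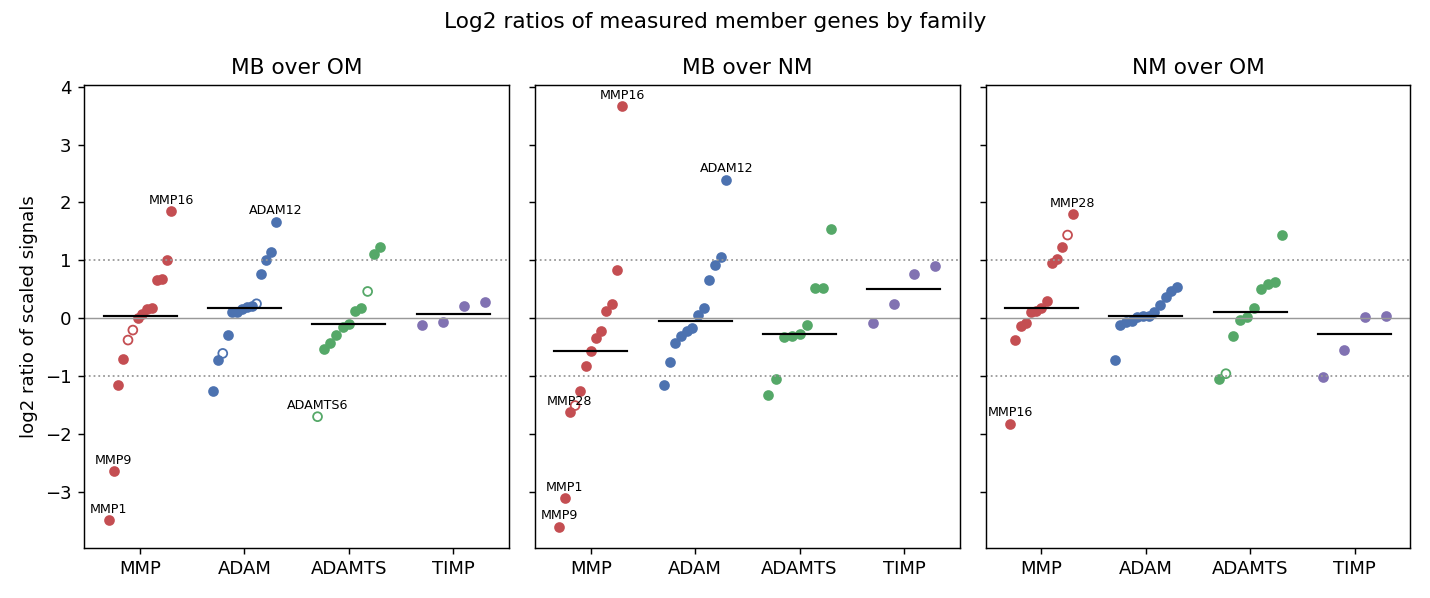
Log2 ratios of scaled signals of the measured member genes (points), by family, for MB over OM, MB over NM and NM over OM. Open points are lower bounds, black bars are family medians and dotted lines mark 2-fold. MMP1 and MMP9 lie lowest in both MB panels, MMP16 and ADAM12 highest, and the TIMP genes lie within 2-fold in both MB panels.

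The collagenases and gelatinases held the deepest losses in MB. MMP1, interstitial collagenase, which opens the triple helix of fibrillar collagens, gave 4367 ± 169.6 a.u. (OM), 378 ± 21.2 (MB) and 2947 ± 133 (NM), as mean and SD over 10 spots. The MB spots ran from 343 to 402 a.u. and lay far below the OM spots, at 4139 to 4672, and the NM spots, at 2728 to 3099.9. Such spots are prints of 1 probe within an array and hold no spread between cultures. MMP1 was 11.3-fold below OM in MB and 8.68-fold below NM, and NM was 1.30-fold lower than OM. MMP8, neutrophil collagenase, and MMP13, collagenase 3, were at or near background as given above.

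MMP9, gelatinase B, which degrades denatured collagen and basement membrane type IV collagen, gave 1448 ± 22.5 a.u. (OM), 225 ± 8.51 (MB) and 2460.1 ± 42.3 (NM). It was 6.28-fold below OM in MB and 12.2-fold below NM. The NM signal was 1.94-fold above OM, just under 2-fold. The unscaled spots of the arrays did not overlap, which reflects the spread of prints within an array and none between cultures. MMP2, gelatinase A, went another way, with 637 ± 23.4 a.u. (OM), 984 ± 39.2 (MB) and 1314 ± 45.2 (NM). MMP2 in MB was 1.58-fold above OM and 1.49-fold below NM, and in NM it was 2.35-fold above OM. The 2 gelatinases thus differed in MB, where MMP9 was at its lowest and MMP2 lay between the monolayers.

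Among stromelysins, which cleave proteoglycans and other matrix proteins, MMP3 and MMP10 were not above background on any array. MMP11, stromelysin 3, which is activated inside the cell by furin, gave 1074 a.u. (OM), 1673 (MB) and 1909 (NM). NM was 2.03-fold above OM, and MB lay 1.59-fold above OM and 1.27-fold below NM. Both matrilysins, MMP7 and MMP26, were not above background anywhere.

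Of the 6 membrane-type MMPs, 5 were measured on all arrays and 2 rose in MB over OM (5.42% over all genes), of which MMP15 lost its call under 6 of 11 alternatives. MMP16 (MT3-MMP), anchored by a transmembrane segment, gave 241 a.u. (OM), 845 (MB) and 59.7 (NM), the NM value being under 100 a.u. It was 3.59-fold above OM in MB and 12.7-fold above NM, and NM was 3.54-fold below OM. A second MMP16 probe, for another transcript, gave 189 a.u. (OM), 778 (MB) and 54.3 (NM), with MB 4.21-fold above OM and 12.8-fold above NM. MMP16 was the only member past 2-fold in all 3 comparisons, and both of its probes ordered the arrays alike.

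MMP15 (MT2-MMP), another transmembrane enzyme, gave 1177 a.u. (OM), 2312 (MB) and 1162 (NM). MB was 2.01-fold above OM, at the threshold, and 1.79-fold above NM, and the monolayers were within 1.13-fold. MMP17 (MT4-MMP), held by a lipid anchor, gave 17515 a.u. (OM), 19203 (MB) and 14534 (NM), within 1.19-fold between any pair of arrays. MMP14 (MT1-MMP), the main cell-surface activator of MMP2, is named here for that role after its values were seen. It gave 3344 a.u. (OM), 3257 (MB) and 2669.7 (NM), within 1.10-fold after scaling. The remaining measured one, MMP25 (MT6-MMP), was 1.62-fold lower in MB than OM.

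The other MMPs held 2 called genes. In MB over OM 1 was lower (3.38% over all genes) and in MB over NM 2 were lower (8.39%). In NM over OM 1 was higher (3.55%). MMP19, expressed in many tissues, gave 398 a.u. (OM), 174 (MB) and 376 (NM), 2.23-fold below OM in MB and 2.40-fold below NM. MMP28, epilysin, known from skin and testis, gave 213 a.u. (OM), 235 (MB) and 650.0 (NM). MMP28 was 3.48-fold higher in NM than OM and 3.09-fold lower in MB than NM, so that only NM stood high. Its second probe, at 25.3, 63.8 and 58.5 a.u., also had NM above OM (2.63-fold), but its MB signal was 2.58-fold above OM and level with NM (1.02-fold lower). MMP23B was measured on every array within 1.22-fold.

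**Figure D2:**
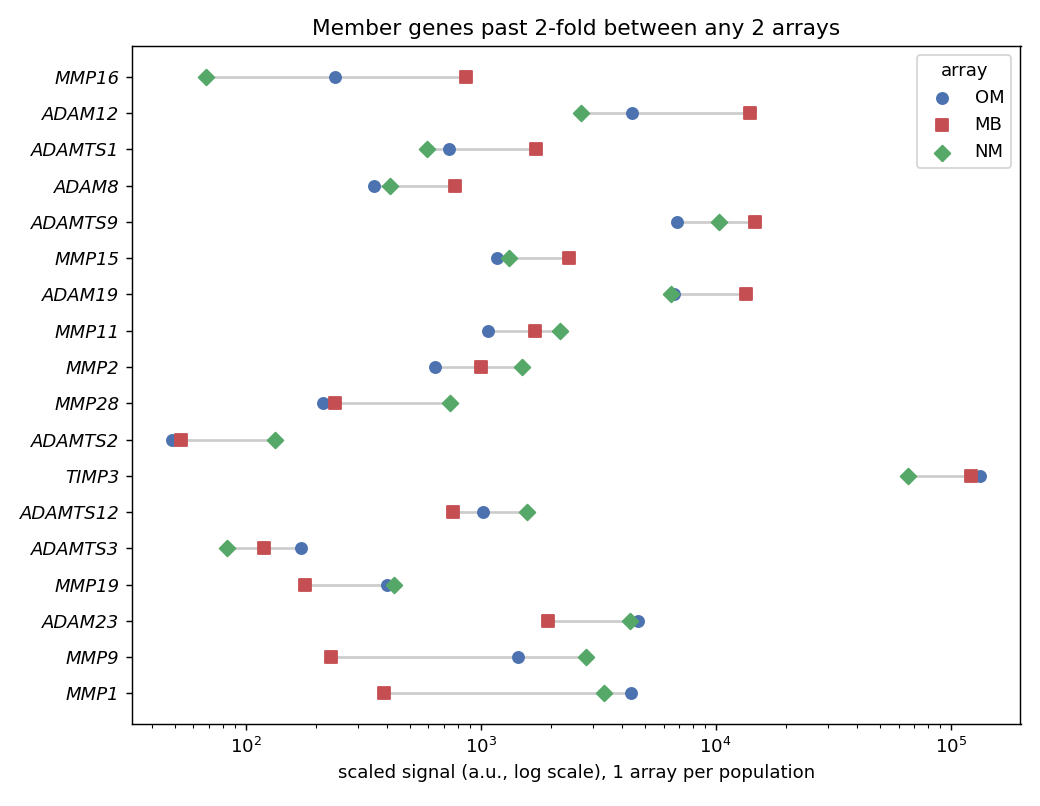
Scaled signal (a.u., log axis) of the 18 member genes past 2-fold between any 2 arrays, with 1 point per array (OM, MB, NM) and a grey line over their range. Genes at the top are highest in MB and those at the bottom lowest in MB, with MMP2, MMP11, MMP28 and ADAMTS2 highest in NM.

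Neighbouring MMP genes differed. On chromosome 11, 9 MMP probes lie within 421.1 kb (hg17), in the order MMP7, MMP20, MMP27, MMP8, MMP10, MMP1, MMP3, MMP12 and MMP13. Of these 9 genes, MMP1 was above background on all arrays, MMP8 and MMP13 on 1 array each, and 6 on none. MMP10 and MMP3, on either side of MMP1, had signals of 4.01 to 7.72 a.u. on the 3 arrays. A second probe filed under MMP1 (for AK097805), at chr11:102208190, was at background on every array and carries no measurement of the change in MMP1.

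**Figure D3:**
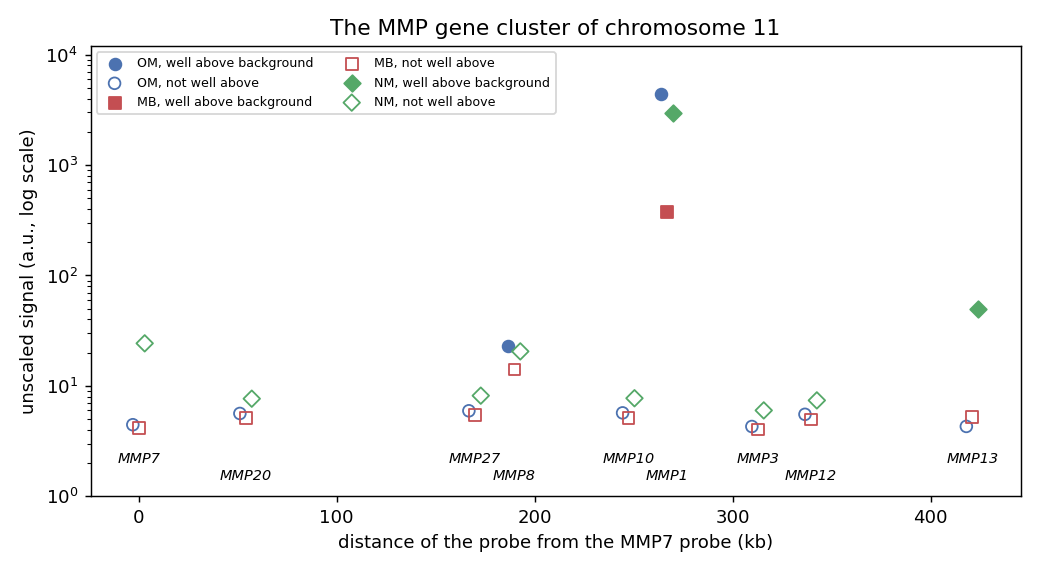
Unscaled signal (a.u., log axis) of the 9 MMP genes of the chromosome 11 cluster against the distance of the probe from the MMP7 probe (kb), with filled symbols well above background and open symbols not. MMP1 stands at 4367, 378 and 2947 a.u. on OM, MB and NM, and its neighbours lie at or near background.

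Among the 9 measured ADAMs with a catalytic site, 3 rose in MB over OM and 0 fell (5.42% and 3.38% over all genes). The call of ADAM19 was lost under 7 of 11 alternatives, that of ADAM8 under 4 and that of ADAM12 under 1. ADAM12 (meltrin alpha), which sheds heparin-binding EGF-like growth factor, gave 4404 a.u. (OM), 13678 (MB) and 2334 (NM) with the probe for the long, membrane-bound transcript. This was 3.18-fold above OM in MB and 5.26-fold above NM, and NM was 1.66-fold below OM. The probe for the short, secreted form, shown above beside it, gave 961 a.u. (OM), 1023 (MB) and 1114 (NM). Its MB signal was 1.09-fold above OM and 1.21-fold below NM, so the rise was seen by the long-form probe and not by the short-form probe. Averaged over both probes, ADAM12 in MB was 1.86-fold above OM and no longer counted.

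ADAM19 (meltrin beta), which sheds neuregulins, gave 6681 a.u. (OM), 13121 (MB) and 5649 (NM). MB exceeded OM 2.01-fold and NM 2.08-fold, and the monolayers were within 1.04-fold. Its second probe, for another transcript, gave 101, 154 and 97.2 a.u., with MB 1.56-fold above OM. ADAM8, known from leukocytes, gave 353 a.u. (OM), 757 (MB) and 359.9 (NM). It rose 2.20-fold in MB over OM and stood 1.89-fold above NM.

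ADAM10 and ADAM17, the principal sheddases of Notch and of TNF, are named for that role after their values were seen. ADAM10 gave 1864 a.u. (OM), 2114 (MB) and 1676 (NM), within 1.16-fold. ADAM17 gave 5702.5 a.u. (OM), 6200.3 (MB) and 6908 (NM), with NM 1.38-fold above OM, and its second probe had NM 1.43-fold above OM. Neither gene passed 2-fold. ADAM9 also missed 2-fold, at 3721 a.u. (OM), 2192 (MB) and 3315 (NM), where MB was 1.66-fold below OM, while its second probe was 2.08-fold below.

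Of the ADAMs without a catalytic site, 1 was lower in MB than in both monolayers. Over all genes, 3.38% were lower against OM and 8.39% against NM. ADAM23, a receptor of LGI proteins in the nervous system, gave 4661 a.u. (OM), 1899 (MB) and 3779 (NM). It was 2.40-fold below OM in MB and 2.22-fold below NM, with the monolayers within 1.08-fold. The others measured on every array, ADAM11 and ADAM22, differed by less than 2-fold, with ADAM22 1.70-fold higher in MB than OM.

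**Figure D4:**
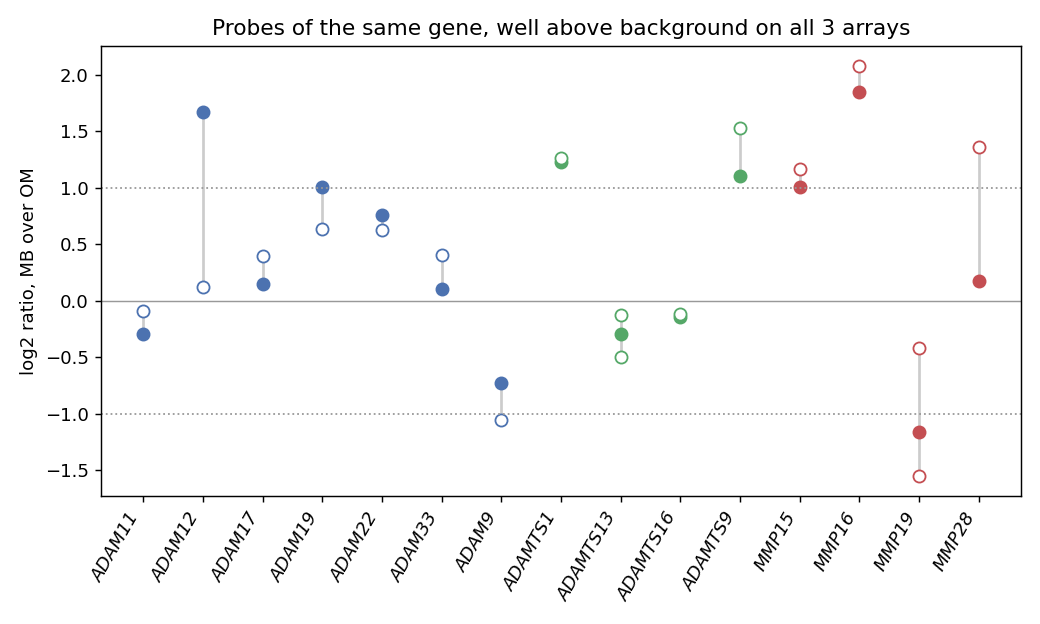
Log2 ratio of MB over OM for each probe of the 15 member genes with more than 1 probe well above background on all 3 arrays. Filled points are the probe that stands for the gene, open points its other probes, and dotted lines mark 2-fold. All 15 genes have their probes on the same side of 0, and the probes of ADAM12, MMP19 and MMP28 lie more than 1 apart.

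Probes of the same gene gave the only other measurement of each transcript set. In 15 genes with several probes above background on all arrays, the probes had the same direction in 15 genes for MB over OM, 13 for MB over NM and 8 for NM over OM. The median span between probes of a gene was 0.30 on the log2 scale for MB over OM. It passed 1 in ADAM12, MMP19 and MMP28. The 3 MMP19 probes, all for the same transcript, were 2.92-fold, 2.23-fold and 1.34-fold lower in MB than OM.

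Of the 7 proteoglycan-cleaving ADAMTS enzymes, 2 rose in MB over OM (5.42% over all genes) and the other 5 were at or near background. ADAMTS1, which cleaves versican and aggrecan, gave 733 a.u. (OM), 1681 (MB) and 517 (NM). MB exceeded OM 2.35-fold and NM 2.92-fold, and a second probe gave 2.41-fold and 2.93-fold. ADAMTS9, which also cleaves versican, gave 6848 a.u. (OM), 14435 (MB) and 9042 (NM). MB exceeded OM 2.16-fold and NM 1.43-fold, so that NM lay between OM and MB. Its second probe was 2.89-fold higher in MB than OM.

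Of the 3 procollagen N-proteinases, which trim the amino-terminal propeptides of fibrillar collagens, 1 was higher and 1 lower in NM than OM (3.55% and 4.86% over all genes), and both calls were lost under 3 of 11 alternatives. ADAMTS2 gave 48.8 a.u. (OM), 51.7 (MB) and 117 (NM), close to the 100 a.u. minimum. NM was 2.72-fold above OM, and MB was 2.52-fold below NM. Another ADAMTS2 probe was above background on NM alone (47.9 a.u.), and a further probe on no array. ADAMTS3, which also takes part in VEGF-C activation, gave 173 a.u. (OM), 117 (MB) and 73.3 (NM). It was 2.07-fold lower in NM than OM, with MB between them. Another ADAMTS3 probe for the same transcript, at 9.12, 8.97 and 9.74 a.u., was not above background on any array. ADAMTS14 was under 100 a.u. on every array, with NM 1.43-fold above OM.

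Of the other ADAMTS genes, ADAMTS12 gave 1026 a.u. (OM), 744 (MB) and 1388 (NM). It was 2.08-fold lower in MB than NM, and MB was 1.35-fold below OM. Another ADAMTS12 probe for the same transcript, at 4.14, 15.4 and 25.4 a.u., was not above background on any array. ADAMTS13, the protease of von Willebrand factor, gave 5858 a.u. (OM), 4675 (MB) and 5199.8 (NM), within 1.24-fold. ADAMTS7 and ADAMTS16, measured on every array, differed by at most 1.22-fold and 1.11-fold.

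The inhibitors gave 1 call in the 4 TIMP genes over the 3 comparisons, a fall in NM over OM (4.86% over all genes). TIMP3, which is bound to the matrix and also inhibits ADAM17, gave 133429 a.u. (OM), 119551 (MB) and 57599 (NM). It was 2.03-fold lower in NM than OM, while MB was 1.09-fold below OM and 1.86-fold above NM. Under 3 of 11 alternatives TIMP3 passed 2-fold in MB over NM. TIMP1, an inhibitor of most secreted MMPs, gave 30125 a.u. (OM), 35839.7 (MB) and 27263.5 (NM), within 1.22-fold. TIMP2, which also takes part in the activation of MMP2 by MMP14, gave 23168 a.u. (OM), 21714 (MB) and 20579 (NM), within 1.06-fold. TIMP4 gave 1866 a.u. (OM), 2120.05 (MB) and 1117 (NM), 1.70-fold higher in MB than NM.

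Taking the comparisons side by side, 18 members were past 2-fold in at least 1 and 49 in none. The matching share over all genes was not computed, so this count alone does not set the members apart. MMP16 was higher in MB than in both monolayers and lower in NM than OM. ADAM12, ADAM19 and ADAMTS1 were higher in MB than in both monolayers, and MMP1, MMP9, MMP19 and ADAM23 were lower than in both. ADAM8, ADAMTS9 and MMP15 passed against OM only. The members that separated the monolayers were MMP2, MMP11, MMP28 and ADAMTS2, higher in NM, and MMP16, ADAMTS3 and TIMP3, lower in NM.

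**Figure D5:**
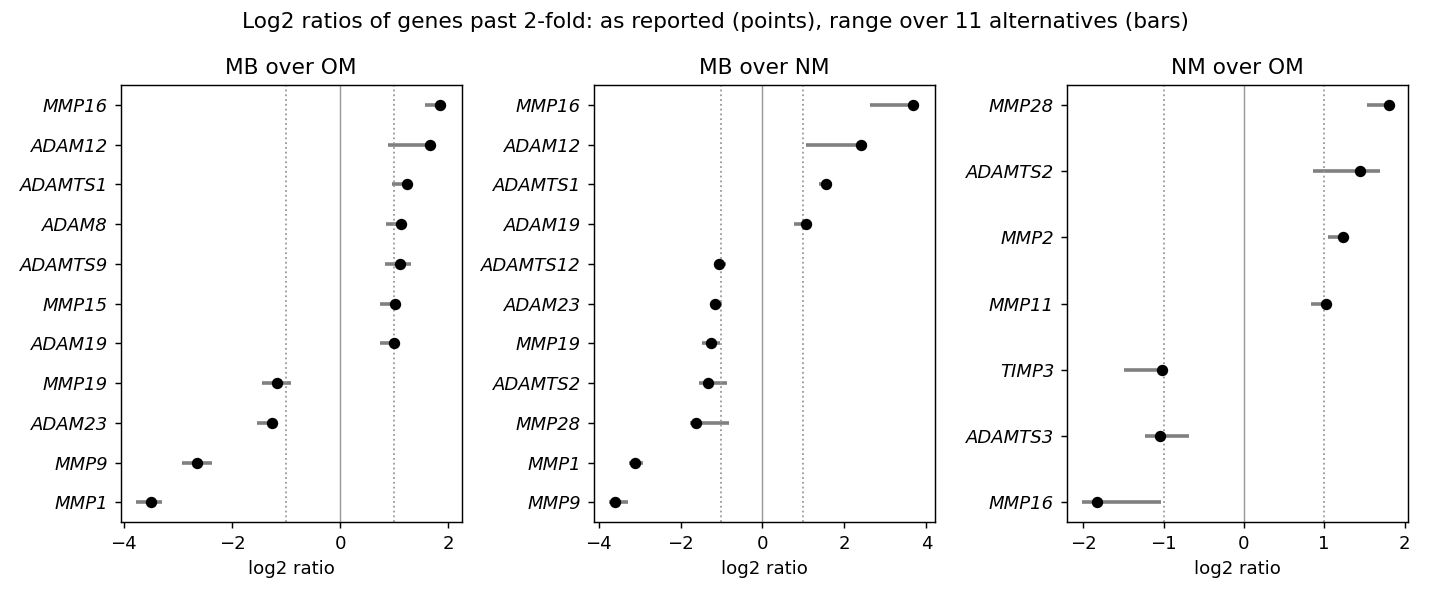
Log2 ratio of each member gene past 2-fold (points) with its range over 11 alternative ways of processing the arrays (bars), for MB over OM, MB over NM and NM over OM. Dotted lines mark 2-fold. The bars of MMP1, MMP9 and MMP16 stay outside 2-fold in every panel they appear in, while those of ADAM19, MMP15 and MMP11 cross it.

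Of the 29 calls of a gene in a comparison, 14 held under all 11 alternatives, 15 were lost under at least 1, and 0 turned direction. Calls were gained as well, such as TIMP3 in MB over NM under 3 alternatives and ADAM8 in MB over NM under 1. MMP1 ranged from 9.81-fold to 13.7-fold lower in MB than OM, and MMP9 from 5.17-fold to 7.61-fold lower. MMP16 ranged from 2.97-fold to 3.89-fold higher in MB than OM and from 6.17-fold to 14.2-fold higher than NM. The call of ADAM19 against OM was lost under 7 alternatives, those of MMP15 against OM and MMP11 in NM over OM under 6, and that of ADAM8 against OM under 4. Both calls of ADAMTS2, that of ADAMTS3 in NM over OM and that of ADAM19 against NM were lost under 3, and those of ADAMTS9 and MMP19 against OM under 2. Those of ADAM12 and ADAMTS1 against OM, and of ADAM23, ADAMTS12 and MMP28 in MB against NM, were lost under 1.

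Genes that act with these enzymes were read from lists of partners. Each partner is given by its brightest probe alone, also where it has several. The 11 alternatives were not run on single partner genes, so how far their calls depend on processing was not tested. Of 9 other inhibitors and cofactors, all measured, 1 rose and 1 fell in MB over OM (5.42% and 3.38% over all genes). A2M, alpha-2-macroglobulin, which traps proteases of all classes, gave 37010.0 a.u. (OM), 391335 (MB) and 69966 (NM). It was 10.8-fold above OM in MB, 5.02-fold above NM and 2.16-fold higher in NM than OM. CD44, a hyaluronan receptor that docks MMP9 at the cell surface, gave 137768 a.u. (OM), 66081 (MB) and 183717 (NM), 2.04-fold below OM in MB and with a log2 ratio of -1.63 to NM. RECK, a membrane-anchored MMP inhibitor named for that role after its values were seen, was within 1.31-fold on all arrays.

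The 7 proprotein convertases, some of which cut the propeptides off membrane-type MMPs, ADAMs and ADAMTSs, held 1 rise and 0 falls in MB over OM (5.42% and 3.38% over all genes). PCSK6 (PACE4) gave 716 a.u. (OM), 5294 (MB) and 1744 (NM), 7.57-fold above OM in MB, 2.72-fold above NM and 2.78-fold higher in NM than OM. Against NM, PCSK5 was 2.27-fold higher in MB and PCSK4 2.22-fold lower. FURIN, the best known of them and named for that after its values were seen, was within 1.14-fold.

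In 9 genes that traffic ADAM10 and ADAM17, 2 rose and 0 fell in MB over OM (5.42% and 3.38% over all genes). TSPAN15, a tetraspanin that escorts ADAM10, gave 136 a.u. (OM), 398 (MB) and 74.7 (NM), 3.00-fold above OM in MB and 4.78-fold above NM. FRMD8, which stabilises the ADAM17 complex with iRhom proteins and is filed on the array as FKSG44, gave 22048 a.u. (OM), 60058 (MB) and 10431 (NM). It was 2.79-fold above OM in MB and 5.17-fold above NM. Against NM, RHBDF1 (iRhom1) was 2.12-fold higher in MB and TSPAN10 2.20-fold lower. ADAM10 itself was within 1.16-fold on the same arrays, and the probes of ADAM17 were within 1.43-fold.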

How the data were processed

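Total RNA of the OM, MB and NM populations was labelled with Cy3 and hybridised to Agilent 4 × 44K arrays, 1 array per population. The authors deposited spot intensities of Agilent Feature Extraction (9.5 in the submitters' processing notes, 9.5.3.1 in the file header), background-subtracted within each array, in arbitrary units, with no scaling between arrays. Deposited 0 or 1 marks give spots well above background, saturated or outlying. In the value table of the series, 130128 of 130128 entries lie within 0.1% of these intensities.

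Outlier spots (77, 79 and 81 on OM, MB and NM) were left out and spots of a probe averaged. Signals were taken relative to the array's average of GAPDH, ACTB and HSP90AA1, each from a probe printed in 10 spots (the methods name HSP90 without the gene). A gene was represented by its probe of highest mean signal, since 28 of the 67 member genes have more than 1 probe. Probes well above background numbered 28746, 29126 and 26516. With 1 array per population no p-value is given, and precision rests on that single array.

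The members and lists were chosen with earlier results of these data known. Named were members past 2-fold in a comparison, all TIMP genes, the member of highest mean signal in each of 12 functional subgroups, genes whose probes disagree past 2-fold, and partner genes past 2-fold. Subgroups follow textbook knowledge, also for the catalytic site of ADAMs, for which no protein sequences were searched. Gene names were matched to a RefSeq table (GRCh38.p14), 62 members by accession and 5 by symbol, and 0 had another current symbol. Probe positions are hg17.

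Other choices tried were 8 spike-in probes, the 75th percentile or no factor at all for scaling, quantile normalization, normexp (offset 50), no background subtraction, no 100 a.u. minimum, both arrays well above background, outlier spots kept, the mean over probes, and the deposited value table. The fold rule was run on simulated arrays in which only bright probes were changed, so changes in dim genes and lower bounds were not tried there. Tools were limma 3.58.1 (R 4.3.3) and, under Python 3.11.15, pandas 2.3.3, numpy 2.4.6 and matplotlib 3.10.9.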

Additional observations from a re-analysis of the deposited data

How the results depend on the processing

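The 2-fold counts of MB over OM depended on scaling. Against 7 members higher and 4 lower as reported, the 75th percentile gave 3 and 4, quantile normalization 4 and 4, and spike-in probes 2 and 5, while normexp gave 4 and 3. For MB over NM, no scaling turned 4 higher and 7 lower into 6 and 5. For NM over OM, normexp and no background subtraction each left 2 members higher of 4. The members' median log2 ratio moved from 0.10 to -0.0865 (75th percentile) and -0.17 (spike-in) for MB over OM, that of MB over NM from -0.20 to -0.31 (75th percentile), -0.34 (quantile), -0.33 (spike-in) and -0.04 (no scaling), and that of NM over OM from 0.045 to -0.15 (no scaling) and -0.10 (spike-in). The median over all genes moved alike, in MB over OM from 0.09 to -0.11 (75th percentile) and -0.20 (spike-in), in MB over NM from 0.04 to 0.20 (no scaling), and in NM over OM from 0.06 to -0.13 (no scaling). The 5-fold counts stayed within 1.5 times the reported ones under all 11 alternatives. No paired analysis was possible because each population has 1 array, and for the same reason no replicate could be left out. Members under 100 a.u., such as ADAMTS2 and MMP16 on the arrays where they are dim, are the most exposed to the background, and ADAMTS2 lost both calls under normexp, with no background subtraction and with the mean over probes.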

Other observations

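Of 14 ADAMTS-like and astacin-family genes, 9 were well above background on all 3 arrays. PAPLN, papilin, an ADAMTS-like matrix protein, gave 739 a.u. (OM), 309 (MB) and 705 (NM), and was 2.34-fold below OM in MB and 2.54-fold below NM. The other 13 genes of the list were not past 2-fold in any comparison. BMP1, the procollagen C-proteinase, was named for its role after its values were seen, and it gave 571 a.u. (OM), 1003 (MB) and 601 (NM), 1.80-fold higher in MB than OM.

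Close names that the rule left out added no change. ADAMDEC1 was not above background on any array, and MMPL1 gave 37.0 a.u. (OM), 35.8 (MB) and 43.9 (NM).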
